A study of Mus musculus with 7 samples.

Results

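CD8 T cells are the cytotoxic lymphocytes of the adaptive immune system. In the mouse marrow studied here they were taken as cells that held at least 2 UMIs (unique molecular identifiers, each standing for 1 captured transcript) of the CD3 chains Cd3e, Cd3d and Cd3g together and at least 1 UMI of Cd8a or Cd8b1, with no UMI of Cd4 or of the B cell gene Cd79a. Of 54669 cells with at least 300 genes and under 10% mitochondrial UMIs, 943 (1.72%) met this rule. Of these, 769 (81.5%) carried a single hashtag and could be given to a sample, 173 carried several hashtags and 1 carried none.

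A CD8 T cell recognises peptides on MHC class I through its T cell receptor. A naive cell keeps Ccr7, Tcf7 and Lef1 and circulates through lymphoid organs. After activation it makes perforin, granzymes and the chemokines Ccl3, Ccl4 and Ccl5, and with repeated stimulation it gains inhibitory receptors such as PD-1 (Pdcd1) and LAG-3 (Lag3). The marrow is known as a site where memory CD8 T cells persist.

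Marrow was cleared of red cells by lysis, and the remaining cells were read by droplet 3′ RNA sequencing in 7 libraries, grouped into 4 pools, WBM_1 to WBM_4. Each of 20 samples bore its own hashtag antibody. The series title concerns inflammation, tumor plasticity and myeloid transformation. The groups are read from the hashtag names: WTY (3 samples), WTO (4), HRY (3) and HRO (6, numbered HRO.7 to HRO.12). A further pair, called chronic below, is HRO.6 and HRO.5, given in the series text as chronic with a TET2 mutation. No other genotype, strain, treatment, time or age is stated for any group, so the prefixes are not interpreted, and it is not said what all groups share or whether a hashtag is 1 animal. P-values therefore measure only the spread between these samples, which may be technical. HR.7 and HR.AE stand in no group. The chronic pair shared pool WBM_1 with HRY.4, WTO.3 and WTY.3. WTO.4 was pooled in WBM_2 with HR.AE and the HRO samples numbered 7, 8 and 9. In WBM_3, HRO.10 and HR.7 stood beside HRY.5, HRY.6, WTY.4 and WTY.5. WBM_4 joined HRO.11 and HRO.12 to WTO.5 and WTO.6.

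Samples differed widely in how much they held. Their kept single-hashtag cells numbered 928 to 5530 and carried 2679390 to 56015664 UMIs. Libraries WBM_3a and WBM_3b shared 2078 barcodes, against 51 in the next pair, and the copy with fewer UMIs was dropped from each shared pair. Cells of WBM_1 were shallow, with a median of 2641 UMIs against 7436 to 7746 in the WBM_2 libraries. HRO.7 with 301 and HRO.8 with 130 cells supplied most of the 603 cells of the HRO group, while the 4 WTO samples together gave 49 cells and 243426 UMIs. A single cell of WTO.6, with 78388 UMIs against 3402 in the next, held 83.8% of that sample's UMIs and 32.2% of those of the WTO group. It had 4 Cd3 UMIs and 1 Cd8 UMI, and 1391 UMIs of the neutrophil progenitor gene Elane, so WTO.6 levels below are mostly those of this cell and are also given without it where the order of the groups changes. Leaving out 1 cell above the 95th UMI percentile of its library took WTY.3 from 71129 UMIs in 14 cells to 34095. In HRO.5 the same step took 26215 UMIs in 8 cells to 11816. Levels of WTY.3 and HRO.5 below include that cell.

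The cells carried genes of cytotoxic cells and T cells that the rule did not use. Of these, Ccl5 and Nkg7 were also present in CD4 T and natural killer cells, as given below. Pooled over all 943, Ccl5 stood at 8380 CPM (UMIs of the gene scaled to a common total of 1e+06 UMIs) and Nkg7, a granule membrane protein of cytotoxic cells, at 1989 CPM, against 10.96 and 81.8 CPM in 2606 B cells (Cd79a of at least 2 UMIs, no Cd3). Trac, the constant part of the T cell receptor alpha chain, stood at 357 CPM against 1.19 in B cells. Both Cd8 chains were seen in 620 cells (65.7%), Cd8a alone in 190 and Cd8b1 alone in 133. The gamma delta gene Trdc was at 0 to 10.9 CPM in the HRO and WTO samples, and the natural killer T cell segment Trav11 was at 0 in all of them. Trdc and Tcrg-C1 together reached 28.9 CPM in HRO.10 and 41.6 CPM in HRO.6, and Zbtb16 and Trav11 together 21.7 CPM in WTO.4. The list of 12 gamma delta and innate-like T cell genes summed to 54.7 to 405 CPM in HRO and 0 to 250 CPM in WTO. The rule does not exclude such cells.

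The edges of the rule were less pure than its centre. The 171 cells with exactly 1 Cd8 UMI had Ccl5 at 5464 CPM and the neutrophil alarmin S100a8 at 25306 CPM, and the 67 cells with exactly 2 Cd3 UMIs had Ccl5 at 3296 CPM. Just outside, 73 cells with 1 Cd3 UMI had Ccl5 at 1442 CPM and S100a8 at 34449 CPM. A larger set of 2803 cells had enough Cd3 but no Cd8 and no Cd4, with Ccl5 at 711 CPM, S100a8 at 70850 CPM and the globin Hbb-bs at 9661 CPM. Another 143 cells were left out for Cd79a, 31 for Cd4, and 179 for their mitochondrial share. These values describe the choice of members and were not tested.

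CD8 T cells took a larger share of the marrow in HRO than in WTO. They made up 5.44% of kept single-hashtag cells in HRO.7 (301 of 5530), 5.19% in HRO.8, 3.20% in HRO.11, 2.21% in HRO.12, 2.18% in HRO.10 and 1.18% in HRO.9. The WTO shares were 1.18% in WTO.3 (13 of 1102 cells), 0.703% in WTO.5, 0.637% in WTO.4 and 0.556% in WTO.6. HRO.9 lay above WTO.3 only in the fourth digit, so the groups were separated by a very small gap.

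The mean share was 3.23% ± 1.74 (SD, n = 6) in HRO and 0.769% ± 0.280 (SD, n = 4) in WTO, which is 4.20 times as high. By an exact two-sided permutation test p was 0.00952, the smallest that the 210 splits allow, and the adjusted p over 5 comparisons was 0.0476. Within WBM_2 the HRO mean was 3.94% against 0.637% in WTO.4, and within WBM_4 it was 2.70% against 0.630%. The call was lost, with exact adjusted p of 0.0595 to 0.0952, when hashtags were normalised within each cell, when neutrophils left the denominator, without WBM_1 and without HRO.7 and HRO.8. Leaving out any single HRO or WTO sample also lost it, with exact adjusted p of up to 0.0794, since fewer splits remain. A share cannot tell more CD8 T cells from fewer other cells.

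Markers of sex moved with these groups. Over all kept cells of a sample, Xist, expressed from the inactive X chromosome, was at 738 to 879 CPM in HRO.7, HRO.8, HRO.10, HRO.11 and HRO.12, where Ddx3y of the Y chromosome was at 0.0751 to 2.38 CPM. HRO.9, the HRO sample with the lowest share, had Ddx3y at 51.5 CPM and Xist at 5.32 CPM. Of the WTO samples, WTO.4 had Xist at 807 CPM, WTO.5 and WTO.6 had Ddx3y at 43.0 and 47.5 CPM with Xist under 5 CPM, and WTO.3 held both, at 41.8 CPM for Ddx3y and 62.1 CPM for Xist. Among the WBM_2 samples high in Xist, the share was 5.44% and 5.19% in HRO against 0.637% in WTO.4. The part of sex in the difference in share was not tested.

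**Figure D1:**
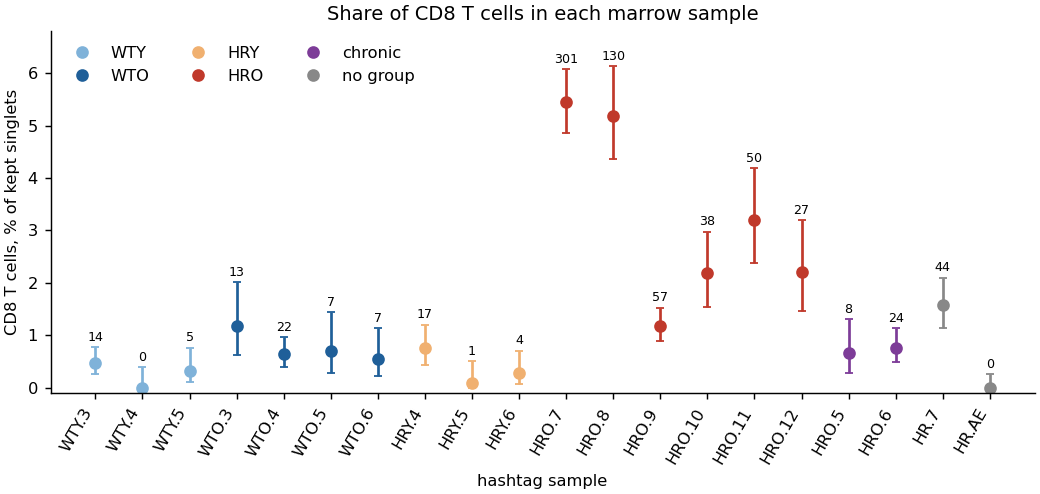
Share of CD8 T cells among kept single-hashtag cells (y axis, percent) in each of the 20 samples (x axis), with exact 95% binomial intervals that cover counting error only and the number of cells printed above. HRO.7 and HRO.8 stand highest at 5.44% and 5.19%, and HRO.9 at 1.18% reaches down to WTO.3.

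The remaining groups had few CD8 T cells. WTY shares were 0.463% in WTY.3, 0.328% in WTY.5 and 0 of 928 cells in WTY.4, which allows a share of up to 0.323% by a limit of 3 counts (the exact 95% interval drawn in the plot of shares reaches 0.397%). HRY shares were 0.753% in HRY.4, 0.276% in HRY.6 and 0.0904% in HRY.5. HRO exceeded HRY (mean 0.373% ± 0.342, SD, n = 3) in every sample, with an exact permutation p of 0.0238 and an adjusted p of 0.0595 that did not pass. WTO against WTY (mean 0.264% ± 0.238, SD, n = 3) gave an exact adjusted p of 0.0952, and HRY against WTY 0.875. The chronic samples, with 0.666% and 0.767%, lay among the other WBM_1 samples, which held 0.463% to 1.18% (exact permutation p = 1, where 0.2 is the smallest possible).

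The balance of CD8 to CD4 T cells, the helper lineage, passed no test. CD4 T cells were counted with the same Cd3 rule, at least 1 Cd4 UMI and no Cd8. Their share was 0.573% to 2.64% in HRO and 0.0907% to 0.811% in WTO, so these ranges overlap. The log2 ratio of CD8 to CD4 cells (0.5 added to each count) was 0.79 ± 1.01 (SD, n = 6) in HRO and 1.56 ± 1.53 (SD, n = 4) in WTO, with an exact permutation p of 0.362. The adjusted p was 0.743 for each of the 5 comparisons. Natural killer (NK) cells, gated by at least 2 UMIs of Ncr1 and Klrb1c together and no Cd3, numbered 0 to 6 in the HRO samples and 2 to 9 in the WTO samples, too few to compare.

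Few genes passed a test in the CD8 T cells themselves. UMIs were summed per sample, and 14 samples with at least 5 cells from groups of at least 2 such samples were fitted in edgeR's quasi-likelihood test with group and pool as terms. Of 2368 genes tested for HRO against WTO, 2 passed an adjusted p of 0.05 (0.0845%), both higher in HRO: the chemokine Ccl4 and Retnlg, a resistin-like gene of neutrophils. No gene passed lower, and 140 had an unadjusted p under 0.05. The median log2 fold change of all genes tested was -0.01. In levels, 84 genes (3.55%) were higher in all 6 HRO samples than in all 4 WTO samples, and 13 (0.549%) were lower. Without the largest cell of WTO.6 these counts were 82 (3.46%) and 29 (1.22%).

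Ccl4 (ENSMUSG00000018930), also known as MIP-1 beta, is a chemokine that attracts other immune cells. Its level was 1470 CPM in HRO.7, 1472 in HRO.8, 467 in HRO.9, 694 in HRO.10, 1113 in HRO.11 and 524 in HRO.12, against 54.3 in WTO.4, 74.8 in WTO.6 and 0 in WTO.3 and WTO.5. HRO.7 and HRO.8 were highest and no HRO sample overlapped with WTO. Without its largest cell WTO.6 stood at 462 CPM (7 UMIs), just under HRO.9. In a fit without the cells of highest UMIs in any sample the log2 fold change was 3.33 (edgeR adjusted p = 0.158). The log2 fold change was 4.06 ± 0.64 (SE), with an edgeR adjusted p of 0.0257. Within WBM_2 the means were 1136 against 54.3 CPM, and within WBM_4 819 against 37.4. The fold stayed between 3.33 and 4.77 under each alternative run, but the call was lost in 7 of 11 settings and without any 1 of WTO.3, WTO.4, WTO.5, HRO.10, HRO.11, HRO.12, either WTY or either chronic sample, with adjusted p of up to 0.727.

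Retnlg (ENSMUSG00000022651) differed between the pools as well as between the groups. It was at 1378 CPM in HRO.10, 2498 in HRO.11 and 3479 in HRO.12 but at 38.0 to 53.8 in the 3 HRO samples of WBM_2, and at 654, 10.9, 316 and 42.8 in WTO.3 to WTO.6. The groups overlap, and with the pool as a term the log2 fold change was 4.0 ± 0.62 (SE), edgeR adjusted p = 0.0257. Within WBM_2 the means were 48.1 against 10.9 CPM, and within WBM_4 2989 against 179. Without the pool term the log2 fold change was 2.40 and not called (edgeR adjusted p = 0.636). The call was lost in 7 of 11 settings, this one included, and without any 1 of WTY.3, WTY.5, WTO.3, WTO.4, HRO.10, HRO.11 or HRO.12. The fold ranged from 2.11 with at least 10 cells to 5.34 without WTO.5, with 2.12 under the stricter gate and 3.26 without WTO.6.

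RNA of neutrophils was present throughout these cells. The 12 genes listed as neutrophil free RNA summed to 5212 to 111736 CPM in HRO and 18911 to 107099 CPM in WTO, lowest in HRO.7 and highest in HRO.12. Of these 12 genes, 2 had a positive and 10 a negative log2 fold change, with a median of -0.23, and only Retnlg passed. Free or attached neutrophil RNA was not removed, and its part in the differences below was not tested. WTO.6 had the progenitor granule genes Elane at 14913 CPM and Mpo at 6297 CPM, of which its largest cell held 1391 of 1395 and 588 of 589 UMIs. Without that cell the neutrophil list of WTO.6 summed to 8382 CPM.

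Among the 19 gene lists, the cytotoxic effector genes had the most members that did not overlap between HRO and WTO. Of 15 measured members of 18, only Ccl4 passed, 12 had a positive log2 fold change, and the median was 1.53 against -0.01 for all genes. In levels, 7 of the 15 were higher in every HRO sample than in every WTO sample: Ccl3, Ccl4, Ccl5, Gzmb, Prf1, Ifng and Fasl, beside 3.55% of all genes tested. Without the largest cell of WTO.6, 4 of the 15 remained (Ccl4, Gzmb, Prf1 and Fasl), while Ccl3, Ccl5 and Ifng overlapped. The filter on low counts could pass such genes through the HRO samples alone, so these counts and the median support no direction. The summed level of the list was 10031 to 21266 CPM in HRO, 2112 to 8716 in WTO (12144 in WTO.6 without its largest cell, which is above HRO.9), 1068 and 6547 in WTY, 4803 in HRY.4 and 6449 and 8125 in the chronic samples.

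Granzyme B (Gzmb, ENSMUSG00000015437), a protease that triggers death in the target cell, was at 853 CPM in HRO.7, 684 in HRO.8, 215 in HRO.9, 299 in HRO.10, 248 in HRO.11 and 90.8 in HRO.12. In WTO it was at 43.5 CPM in WTO.4, 10.7 in WTO.6 and 0 in the other 2. The groups did not overlap, but the log2 fold change of 3.88 ± 0.74 (SE) had an edgeR adjusted p of 0.0867. Perforin (Prf1), which forms the pore that lets granzymes in, was at 62.0 to 588 CPM (median 316) in HRO and 0 to 50.3 CPM in WTO, with a log2 fold change of 3.50 ± 0.85 and an adjusted p of 0.200.

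Ccl5 (ENSMUSG00000035042), a chemokine stored by memory CD8 T cells, was the most abundant of the list. It was at 6788 to 15428 CPM (median 10841) in HRO and at 402, 6021, 2975 and 1443 CPM in WTO.3 to WTO.6. The lowest HRO sample, HRO.9, lay just above WTO.4 from the same pool and below WTO.6 without its largest cell (8118 CPM), and the log2 fold change was 1.53 ± 0.36 (SE, edgeR adjusted p = 0.200). Ccl3, the neighbour of Ccl4 on the chromosome, was at 57.2 to 952 CPM in HRO and 0 to 42.8 CPM in WTO (264 in WTO.6 without its largest cell). Nkg7 overlapped between the groups, with 983 to 2712 CPM in HRO and 711 to 1443 CPM in WTO. DESeq2 on the same sums called 10 genes, all higher in HRO, which were Ccl4, Ccl3, Ccl5, Gzmb, Prf1, Lag3, Id2, Junb, Serpina3g and Retnlg.

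**Figure D2:**
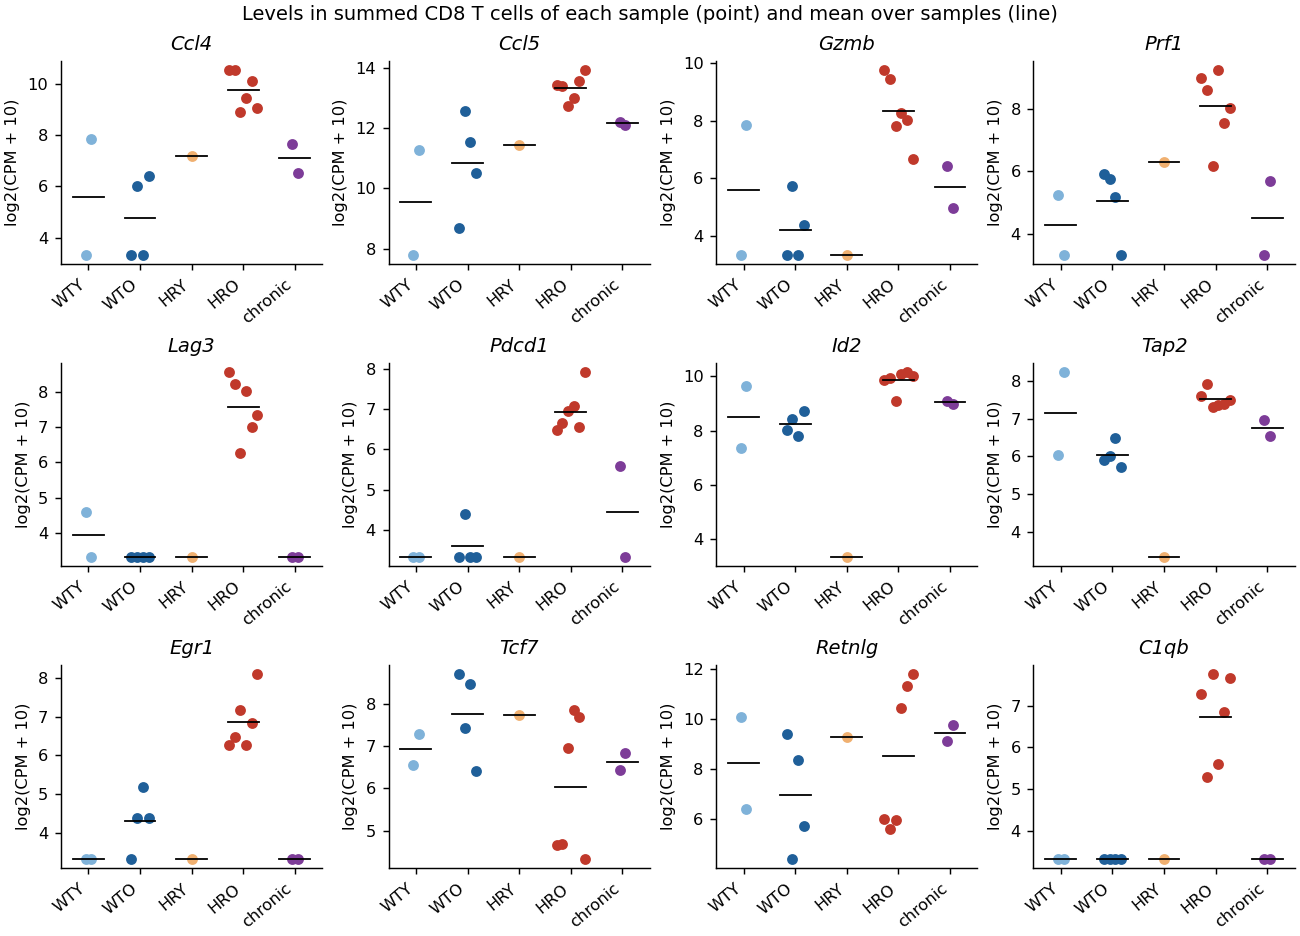
Levels of 12 genes, as log2(CPM + 10) on the y axis, in the summed CD8 T cells of each sample (points) by group (x axis), with the mean over samples as a line. Ccl4, Ccl5, Gzmb, Prf1, Lag3, Pdcd1, Id2, Tap2, Egr1 and C1qb of all 6 HRO samples lie above the 4 WTO samples, drawn with the largest cell of WTO.6 (without it Ccl5, Id2 and Tap2 overlap), while Tcf7 and Retnlg overlap.

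The promoters of 3 of these effector genes are shown because their levels stood above WTO in every HRO sample. They are RefSeq sequences of build GRCm38.p6, the 250 bases before a listed start of the gene, read 5′ to 3′ on the strand of the gene. Of 7 genes sought (Ccl3, Ccl4, Ccl5, Gzmb, Prf1, Lag3, Pdcd1), 4 matched, the fourth being Pdcd1. Capitals mark the letters TGANTCA, the AP-1 motif, and TGTGGT, the core of the Runx motif, on either strand. The Gzmb window is chr14:56262335-56262584 on the minus strand, the Ccl3 window chr11:83649379-83649628 on the minus strand, and the Prf1 window chr10:61297586-61297835 on the plus strand. The RefSeq gene model of Prf1 begins at base 61297751, so the end of its window lies inside the gene. Bases just after the listed start were found in GENCODE transcripts of Ccl3 and Pdcd1, and not in those of Gzmb and Prf1.
Gzmb: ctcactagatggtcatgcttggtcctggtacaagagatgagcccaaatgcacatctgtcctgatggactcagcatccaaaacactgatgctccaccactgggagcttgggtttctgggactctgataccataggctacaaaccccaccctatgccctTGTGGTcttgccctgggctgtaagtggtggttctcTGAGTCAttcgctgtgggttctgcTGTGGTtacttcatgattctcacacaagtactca
Ccl3: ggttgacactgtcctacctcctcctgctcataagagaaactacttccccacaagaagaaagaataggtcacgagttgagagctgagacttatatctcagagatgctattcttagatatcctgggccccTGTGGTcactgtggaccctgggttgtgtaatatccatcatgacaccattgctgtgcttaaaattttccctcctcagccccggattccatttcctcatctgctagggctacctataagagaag
Prf1: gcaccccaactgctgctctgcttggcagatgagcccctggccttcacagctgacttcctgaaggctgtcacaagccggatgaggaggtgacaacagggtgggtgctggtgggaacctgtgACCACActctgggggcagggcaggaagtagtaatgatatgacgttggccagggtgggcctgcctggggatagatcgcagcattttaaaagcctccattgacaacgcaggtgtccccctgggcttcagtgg
The Gzmb window holds 1 AP-1 match and 2 Runx core matches, and the Ccl3 and Prf1 windows hold 1 Runx core match each. TGANTCA occurs in 6.87% and TGTGGT in 14.2% of 27025 promoter windows of this length. An NF-kB motif, found in 17.3% of windows, and the T-box letters TCACACCT, found in 1.14%, had no match in the 4 windows, and Pdcd1 had no match to any of the 4 motifs. The motifs do not overlap each other in these windows. A match describes letters only.

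Checkpoint and exhaustion genes were the list with the highest median. All 7 measured members of 18 had a positive log2 fold change with a median of 3.01, which is unchanged when Lag3 is put at its lower bound, and none passed the test. The filter on low counts could pass such genes through the HRO samples alone, so this count supports no direction. Lag3 (ENSMUSG00000030124), an inhibitory receptor that binds MHC class II, was at 365 CPM in HRO.7, 287 in HRO.8, 66.8 in HRO.9, 251 in HRO.10, 119 in HRO.11 and 151 in HRO.12. It had no UMI in the 4 WTO samples. The pooled HRO level of 299 CPM was at least 24.3-fold higher than the 12.3 CPM that 3 UMIs over the WTO group would give (edgeR adjusted p = 0.152). HRO.7 and HRO.8 weigh most in that pool, and the mean of the 6 HRO samples was 207 CPM, at least 16.8-fold. The pooled bound fell to 15.0-fold without WTO.6 and 15.1-fold without WTO.4.

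Pdcd1, which encodes PD-1, was at 79.7 to 232 CPM in HRO, highest in HRO.12, and at 10.9 CPM in WTO.4 with none in the other WTO samples. Its log2 fold change was 4.51 ± 1.02 (SE, edgeR adjusted p = 0.191). Nr4a2, a nuclear receptor induced by T cell receptor signals, was at 42.9 to 413 CPM in HRO and 0 to 21.7 in WTO, but WTO.6 without its largest cell stood at 132 CPM. Havcr2 (TIM-3) was at 4.77 CPM in HRO.9 and up to 149 in HRO.7, and overlapped with WTO.6 at 10.7. The summed list was 1056 to 2043 CPM in HRO, against 150 to 630 CPM in WTO (726 in WTO.6 without its largest cell) and 104 and 496 CPM in the chronic samples.

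Genes of the naive and central memory state mostly had negative log2 fold changes, without a call. Of 12 measured members of 15, 11 had a negative log2 fold change and the median was -0.63. The T cell factor Tcf7 was at 10.1 to 222 CPM in HRO, with HRO.7, HRO.8 and HRO.12 lowest, and at 74.8 to 402 CPM in WTO (edgeR adjusted p = 0.845). Igfbp4 was at 1.12 to 40.3 CPM in HRO and 10.9 to 353 CPM in WTO, with a log2 fold change of -3.30 ± 1.05 (SE, adjusted p = 0.476). S1pr1, the receptor for exit from tissue into blood, was at 0 to 70.1 CPM in HRO and 32.1 to 132 CPM in WTO. No member of this list was free of overlap between the groups.

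Regulators of the effector state and tissue-linked genes held no call either. Id2, a transcriptional regulator needed for effector survival, was at 539 to 1127 CPM in HRO and 211 to 417 CPM in WTO, with a log2 fold change of 1.28 ± 0.33 (SE, edgeR adjusted p = 0.244). Bhlhe40 was at 100 to 353 CPM in HRO and 0 to 74.8 CPM in WTO. Without its largest cell WTO.6 overlapped for both, with Id2 at 858 CPM and Bhlhe40 at 198 CPM. Of 10 measured tissue residence and homing genes, 2 did not overlap, beside 3.55% of all genes tested that were higher in HRO. They were Rgs1 (205 to 464 CPM against 0 to 120) and the chemokine receptor Cxcr6 (144 to 328 against 26.3 to 130). Cxcr6 overlapped without the largest cell of WTO.6 (264 CPM), which left 1 of the 10, beside 3.46%. As in the cytotoxic list, the filter on low counts means that these counts support no direction. Among memory surface genes, Ly6a, which interferon induces, was at 101 to 1487 CPM in HRO and 0 to 141 CPM in WTO, and overlapped through HRO.12.

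All 15 measured immediate early genes, which respond within minutes to signalling and to handling, had a positive log2 fold change, with a median of 1.03 and no call. Egr1 was at 66.8 to 262 CPM in HRO and 0 to 26.3 CPM in WTO without overlap. Leaving out the largest cell put WTO.6 at 66.0 CPM (1 UMI), just under the lowest HRO sample. Junb, an AP-1 subunit, was at 183 to 655 CPM against 21.7 to 211 CPM with overlap. Without its largest cell WTO.6 summed to 3564 CPM over the 20 listed genes, within the HRO range of 2082 to 6232 CPM. The part of cell handling was not tested. All 19 measured genes of interferon gamma response and antigen presentation were also positive, with a median of 0.82 and no call. Of these, Tap2, which carries peptides to MHC class I, was at 148 to 231 CPM in HRO and 42.8 to 79.0 CPM in WTO, and Gbp4 at 157 to 251 against 26.3 to 101 CPM, while WTO.6 without its largest cell stood at 198 CPM in both (3 UMIs each) and overlapped. The immunoproteasome subunit Psmb8 (443 to 1208 against 182 to 511 CPM) overlapped. The 30 genes of the list summed to 10494 to 15652 CPM in HRO and 4287 to 10487 CPM in WTO. Without its largest cell WTO.6 stood at 15378 CPM, within the HRO range. For both lists the filter on low counts could pass members through the HRO samples alone, so the counts of positive signs support no direction.

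**Figure D3:**
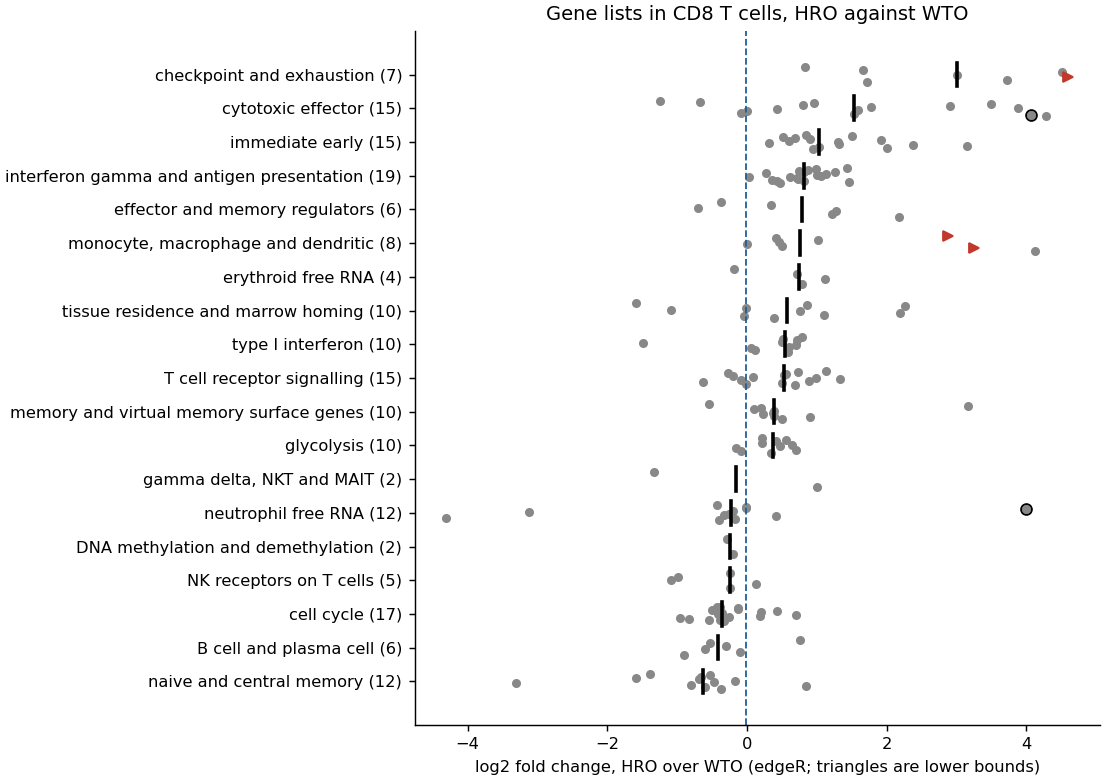
Log2 fold change of HRO over WTO (x axis) for each tested member (points) of 19 gene lists (y axis, number tested in parentheses), with list medians as black lines and the median of all genes, -0.01, dashed. Triangles are lower bounds for genes with no WTO UMI, open black rings are the 2 called genes Ccl4 and Retnlg, and the checkpoint (3.01) and cytotoxic (1.53) medians lie farthest right.

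The other lists held no call. The medians were 0.78 for effector and memory regulators (6 measured), 0.75 for erythroid free RNA (4), 0.58 for tissue residence and homing (10), 0.55 for type I interferon genes (10 measured), 0.52 for T cell receptor signalling (15), 0.38 for both glycolysis (10) and memory surface genes (10), -0.16 for gamma delta and innate-like T cell genes (2), -0.24 for both NK receptors (5) and DNA methylation genes (2), -0.36 for cell cycle genes (17) and -0.41 for B and plasma cell genes (6). In T cell receptor signalling, the kinase Zap70 (111 to 212 against 0 to 86.9 CPM) and its adaptor Lcp2 (151 to 299 against 0 to 120 CPM) did not overlap. They were 2 of 15 measured genes with or without the largest cell of WTO.6, beside 3.55% and 3.46% of all genes tested. Given the filter on low counts, this count supports no direction either. The 16 genes of that list summed to 5810 to 6872 CPM in HRO and 1582 to 5814 CPM in WTO. WTO.6 without its largest cell stood at 7590 CPM, above every HRO sample. The 20 cell cycle genes summed to 2188 to 7297 CPM in HRO and to 1106, 5684, 1158 and 8296 CPM in WTO.3 to WTO.6. Leaving out the largest cell took WTO.6 to 1584 CPM, and its glycolysis list from 4191 to 1650 CPM. How far the medians of both lists rest on that cell was not tested. The NK receptor Klrk1 (NKG2D) was at 28.6 to 149 CPM in HRO and 0 to 337 CPM in WTO. Tet2 did not reach the test and was at 40.3 to 86.7 CPM in HRO and 0 to 52.7 CPM in WTO, with 20.8 CPM in HRO.6 and none in HRO.5.

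The macrophage complement gene C1qb was at 146, 29.0, 205, 38.6, 105 and 192 CPM in HRO.7 to HRO.12 and had no UMI in WTO, a pooled level at least 9.48-fold above what 3 UMIs over WTO would give (5.84-fold without WTO.6, 5.90-fold without WTO.4, 6.33-fold without HRO.7; edgeR adjusted p = 0.342). C1qa was at 0 to 148 CPM in HRO and 0 to 10.9 CPM in WTO, which overlap, and no gene of its list passed. The whole list of 12 monocyte, macrophage and dendritic genes summed to 901 to 1545 CPM in HRO and 263 to 1509 CPM in WTO, which overlap. Of its 8 measured members, 7 had a positive log2 fold change, with a median of 0.76. As in the checkpoint list, the filter on low counts means that this count supports no direction. The 4 monocyte markers Csf1r, Ly86, F13a1 and Ms4a6c summed to 60.5 to 414 CPM in HRO and 26.3 to 402 CPM in WTO. The part of macrophage RNA in the other differences was not tested.

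For the gene tests, fitting the presence of Ddx3y, a gene of the Y chromosome, as a term left no gene called, with 101 at an unadjusted p under 0.05, and the log2 fold change of Ccl4 was then 3.68 (edgeR adjusted p = 0.107).

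Per cell, the effector genes were found in a part of the HRO cells. After each cell was thinned to 1000 UMIs, 598 HRO and 47 WTO cells remained, from median depths of 4214 and 2478 UMIs, and 5 and 2 shallower cells were left out. Gzmb had a UMI in 39.1% of HRO and 4.26% of WTO cells, Ccl4 in 33.9% and 8.51%, Prf1 in 25.3% and 4.26%, and Lag3 in 23.7% and 0 of 47 cells, which allows up to 6.38%. In 1303 B cells of median depth 2646, the shares were 0.153% for Gzmb, 0.614% for Ccl4, 0.230% for Prf1 and 0.460% for Lag3. Unthinned, Gzmb was seen in 70.3% and Ccl4 in 57.9% of HRO cells. HRO.7 and HRO.8 gave most of the HRO cells and so weigh most in these shares, and WTO.4 gave 22 of the 47 WTO cells. Cells are not replicates, so the pooled shares are a description with no test.

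HRO samples differed among themselves. Gzmb was seen in 45.2% of thinned cells in HRO.7 and 44.2% in HRO.8 but in 3.70% in HRO.12, below the pooled WTO share. In HRO.12 Ccl4 was seen in 51.9%. Il7r, the interleukin 7 receptor of resting cells, was seen in 43.9% of cells in HRO.9 and 34.7% in HRO.11, against 7.36% in HRO.7, 8.53% in HRO.8 and 5.41% in HRO.10. In B cells, whose precursors use this receptor, Il7r was at 12.3%. Tox was highest in HRO.10 at 45.9%. Mki67, a marker of cycling cells, was seen in 23.4% of HRO.7 and 3.70% of HRO.12 cells, and in 14.4% of B cells.

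**Figure D4:**
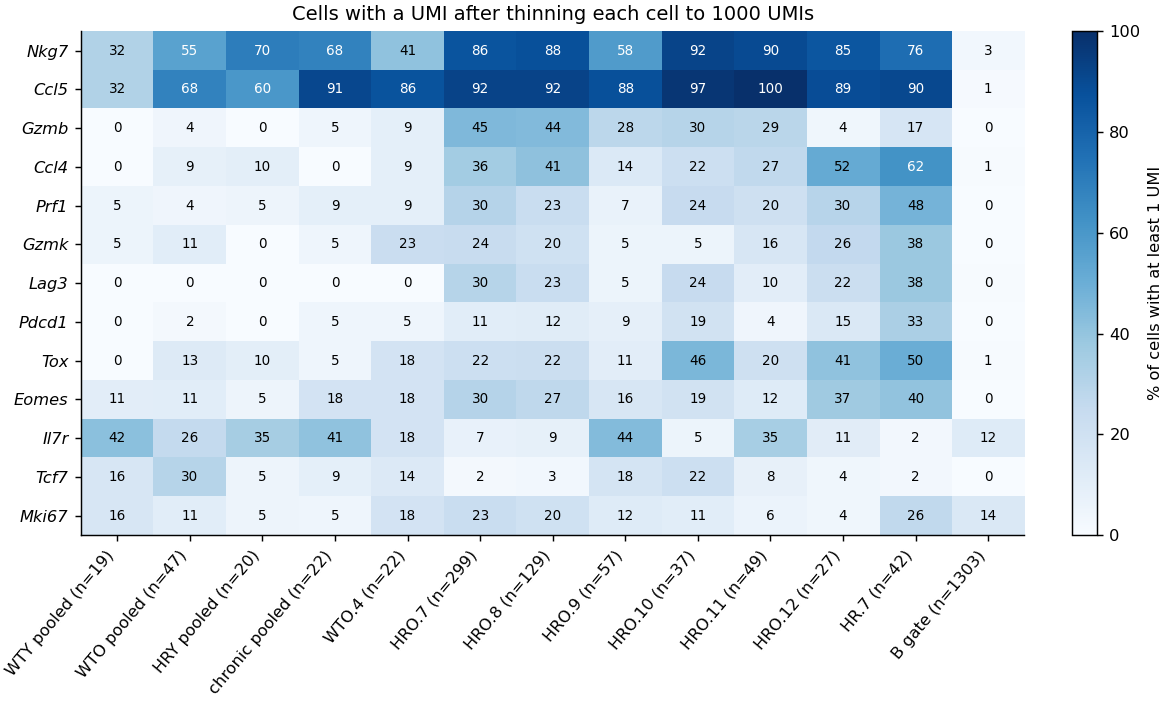
Percent of cells with at least 1 UMI (colour and printed value) of 13 genes (rows) in CD8 T cells of samples or pooled groups and in B cells (columns, number of cells in parentheses), each cell thinned to 1000 UMIs. Gzmb reaches 45% in HRO.7 and 4% in HRO.12, and Il7r 44% in HRO.9.

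Some of these genes were found in the same cells. Among thinned HRO cells with a Ccl3 UMI, 75.6% had a Ccl4 UMI, against 22.7% of those without, with 75.8% against 24.5% in HRO.7 and 82.1% against 29.7% in HRO.8. Pdcd1 was seen in 20.4% of cells with Lag3 and 7.89% of cells without. Il7r was seen in 6.84% of cells with Gzmb and 17.6% of cells without. Gzmk, the granzyme of an early memory state, was seen in 18.4% of cells with Gzmb and 20.6% of those without. These shares pool samples of unlike makeup and are given with no test. In the RefSeq annotation the models of Ccl3 and Ccl4 overlap. In GENCODE they do not, with Ccl3 ending at base 83649355 and Ccl4 starting at base 83662584. The counts carry Ensembl gene identifiers, but which annotation was counted is not stated. Whether reads of these 2 genes are fully separate was not tested.

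V segments of the T cell receptor could be counted in few samples. HRO.7 had 88 UMIs of beta chain V genes over 15 segments, led by Trbv13-1 with 20.5%, and 49 UMIs of alpha chain V genes over 23 segments. HRO.8 had 41 beta chain UMIs over 8 segments, led by Trbv2 with 26.8%. Other samples had at most 7 beta chain UMIs. Near-identical V genes share reads, so single segments are uncertain.

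Beside CD4 T cells, the CD8 T cells had more RNA of some receptors known from NK cells. Over 5 samples with at least 20 cells of both kinds (WTO.4, HRO.7, HRO.8, HRO.9 and HRO.12), mean levels were 140 CPM against 4.16 for Klrk1, 183 against 19.9 for Klrd1 (CD94) and 84.3 against 8.71 for Cd160, each higher in CD8 T cells in all 5. Pooled NK cells (94 cells) exceeded them for Klrk1 (700 CPM) and Klrd1 (633 CPM) and not for Cd160 (36.3 CPM). Over the same samples Ccl5 was at 9983 CPM in CD8 T cells and 5172 in CD4 T cells, with 3089 in pooled NK cells. For Nkg7 these levels were 2001, 1265 and 1236 CPM. Against both other kinds, the highest ratios among genes of at least 50 CPM in CD8 T cells were Tcrg-C2 (12.4 times), C1qa (8.51), C1qc (4.43), C1qb (4.36), Fcgr4 (4.0), Nr4a2 (3.37), Stfa2l1 (3.31), Wdr95 (3.03), Gzmb (2.44) and Cxcr6 (2.44). Tcrg-C2 is a gamma chain constant gene, C1qa, C1qb, C1qc and Fcgr4 are macrophage genes and Stfa2l1 is a neutrophil gene. The Stfa2l1 ratio rests on HRO.12 (63 UMIs, 635 CPM, against 0 to 4.77 CPM in the other samples), and its pooled CD8 level of 31.1 CPM was below the 39.1 CPM of NK cells. C1qb was higher in CD8 T cells in 4 of 5 samples and C1qc in 3 of 5. These cells were chosen by their own genes, so the comparison is a description. A test of a different HRO to WTO change in CD8 than in CD4 T cells (edgeR's quasi-likelihood test of the interaction, 4 HRO samples and 1 WTO sample, 3 residual degrees of freedom) called 0 of 6937 genes, with 318 at an unadjusted p under 0.05. With 1 WTO sample this count says nothing on whether the change is shared.

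In the chronic samples, 1 gene passed. Against the mean of WTO and WTY, Ccl5 was the 1 gene of 2368 called (0.0422%), with a log2 fold change of 4.04 ± 0.60 (SE, edgeR adjusted p = 0.0186), and 81 genes had an unadjusted p under 0.05. HRO.5 stood at 4692 CPM and HRO.6 at 4410 CPM, against 402 CPM in WTO.3 and 211 CPM in WTY.3 of the same pool. The other WTO and WTY samples, from other pools, held 1443 to 6021 CPM, and HRY.4 of the same pool, which entered no fit, held 2773 CPM. Without the pool term the log2 fold change was 1.69 and not called (adjusted p = 0.977). The call was also lost without HRO.7 and HRO.8 together and without any 1 of WTY.3, WTY.5, WTO.3, HRO.10, HRO.5 or HRO.6, with edgeR adjusted p of up to 0.805, while the log2 fold change stayed between 3.87 and 4.21. This contrast could not be fitted with the stricter gate or with hashtags normalised within each cell, so the Ccl5 call was not checked there. These WTO and WTY samples are shared with the other comparisons.

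Of the 15 cytotoxic genes measured, 14 had a positive log2 fold change in the chronic contrast, and Ccl5 alone passed. Their median was 1.99 against 0.12 for all genes. The list summed to 6449 and 8125 CPM in the chronic samples, within the WTO range of 2112 to 8716 CPM. In the fit only WTO.3 and WTY.3, at 2112 and 1068 CPM, shared their pool. The share of positive genes among all tested was not counted, so this count supports no direction. The 7 checkpoint genes had a median of 0.04. Lag3 had no UMI in HRO.5 or HRO.6, and Pdcd1 was at 38.1 CPM in HRO.5 and 0 in HRO.6. At 26215 and 48071 UMIs of CD8 T cells, low levels of these genes could not be seen in the chronic samples.

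WTO against WTY had 4 samples against 2, and edgeR called 0 of 2368 genes (0%), with 97 at an unadjusted p under 0.05 and 0 by DESeq2. The 17 cell cycle genes measured all had a negative log2 fold change, with a median of -1.60 against -0.02 for all genes. The 15 cytotoxic genes had a median of 0.50. WTY.3 had neutrophil list RNA of 144976 CPM and WTY.5 of 2110 CPM, so the 2 WTY sums were unlike each other. WTY.5 had 5 cells with 13747 UMIs, and 1 cell of WTY.3 held much of its sum. HRY had 1 sample with at least 5 CD8 T cells, so no gene test was made for HRY against WTY or HRO against HRY.

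**Figure D5:**
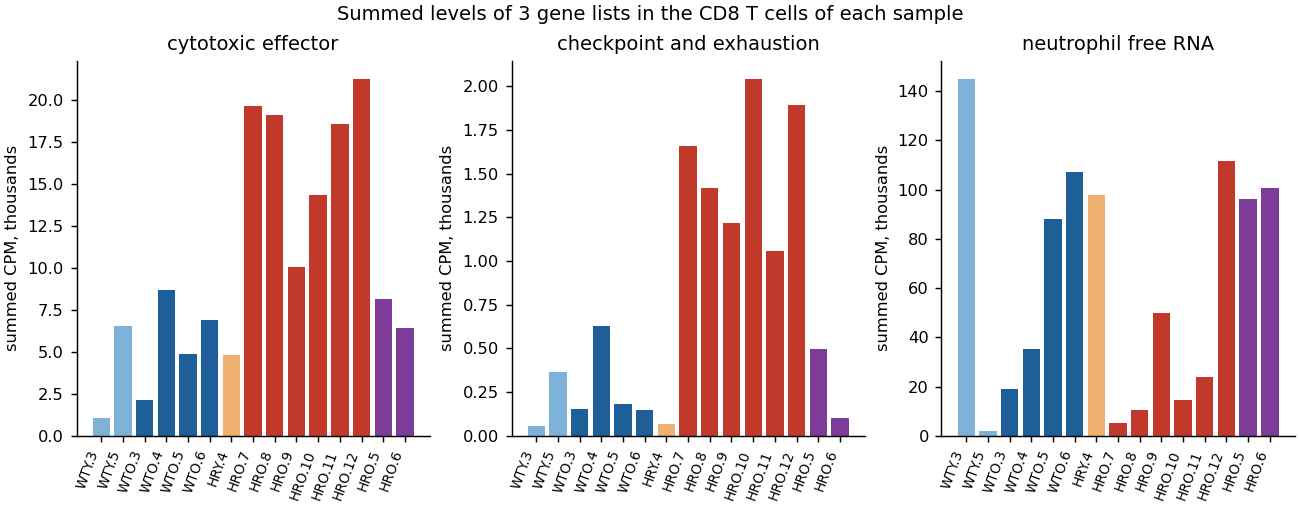
Summed CPM (y axis, from 0, in units of 1000) of the cytotoxic effector, checkpoint and exhaustion, and neutrophil free RNA lists in the CD8 T cells of each sample (bars, coloured by group as in the plot of shares). All 6 HRO samples exceed the other samples drawn in the first 2 panels, where WTO.6 is drawn with its largest cell, and WTY.3 is highest in neutrophil RNA at 144976 CPM.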

How the data were processed

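Marrow of 20 hashtagged mouse samples was read from 7 libraries. The authors deposited raw UMI counts per gene and barcode, and hashtag counts, as whole numbers. Per the file headers, matrices were written by Cell Ranger 3.0.0 (WBM_1) and 3.1.0, and build mm10 and the tools Seurat, bcl2fastq and Cell Ranger are named in the submitters' processing notes. Which annotation was counted, and how barcodes were chosen, is not stated in the labels or headers. The counts are not length-corrected, and 3′ tags give no isoforms.

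Seurat 5.3.0 (HTODemux, quantile 0.99) assigned hashtags from log ratios centred across cells. Counts of single-hashtag members were summed per sample. CPM values scale those sums to a common total. Tests used edgeR 4.0.16 (R 4.3.3; TMM, filterByExpr, Benjamini-Hochberg at 0.05), with DESeq2 1.42.0 as an alternative, and exact permutation tests over samples (Python 3.11.15, numpy 2.4.6). On simulated counts for HRO against WTO over 1976 genes, 81.2% of changes of log2 2 and 78.4% of changes of log2 -2 were recovered, 100% at log2 4 and -4, and 0.445% of unchanged genes were called. These counts were drawn from a single profile for all samples, with a fixed spread, no pool effect and no sample dominated by a single cell. The real sums differ in these respects, so the rates do not give the power of the test in them.

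The plan asked for at least 20 member cells per sample, which left no pair of groups with 2 samples each. At least 5 were used instead, chosen after cell counts were seen and ahead of gene tests, and HRY fell out of the gene fits for this reason. The chronic contrast is therefore against WTO and WTY alone. The members, the 19 gene lists, the tests and the alternatives were chosen with earlier results of these data known. Genes named are, per comparison, those past the threshold (12 per direction at most, mean level 20 CPM or more), up to 4 per list by p, the cell type markers, Tet2 and, beside the other gates, the 10 highest ratios at a mean of at least 50 CPM. Ccl3, Ifng, Il7r, Mki67 and Serpina3g were named after values were seen. No sample of the NK gate reached 20 cells, so its pooled level was used. Doublets were removed by hashtag only. Intervals are exact 95% binomial intervals, and intervals and limits of 3 counts cover counting error only. Levels of WTO.6 without its largest cell, and bounds with each sample left out, were added after the results were seen.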

Additional observations from a re-analysis of the deposited data

Results flagged for a closer look

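Among 78 groups of values examined, 14 held a sample far from the others of its group, and chance alone gives about 1 in 20. HRO.9 stood low in Nkg7 at 983 CPM and in Id2 at 539 CPM. HRO.12 stood high in Pdcd1 at 232 CPM, Nr4a2 at 413 CPM, Egr1 at 262 CPM, Dusp1 at 444 CPM and Igfbp4 at 40.3 CPM. HRO.10 stood high in Lcp2 at 299 CPM, Zap70 at 212 CPM and Klre1 at 193 CPM. WTO.4 was the WTO sample with Pdcd1 (10.9 CPM) and C1qa (10.9 CPM), WTO.6 the one with Havcr2 (10.7 CPM), and WTO.6 had Elane at 14913 CPM, with 50.3 CPM the next level. The values of 10.9, 10.9 and 10.7 CPM are 1 UMI each against zeros, for which that rate does not hold, and 1 cell held 1391 of the 1395 Elane UMIs.

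HR.7, a sample in no group and no comparison, had signals above the WTO and WTY samples. CD8 T cells made up 1.57% of its kept cells, against at most 1.18% in those samples. Their cytotoxic list summed to 19915 CPM against at most 8716 CPM, and their checkpoint list to 3496 CPM against at most 630 CPM. Without its largest cell WTO.6 was higher than these, at 12144 and 726 CPM.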

How the results depend on the processing

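Of 37 genes named for HRO against WTO, 34 kept the sign of their log2 fold change in every alternative that gave them a value. There were 25 alternatives, and some genes had no value in several. Nr4a2, for example, had one in 8 of 11 settings and in 12 of 14 fits leaving out 1 sample. The cause of each shift below was not tested. HRO against WTO gave 2 called genes, 0 with at least 10 cells, hashtags normalised within each cell, a stricter gate, the Ddx3y term, without HRO.7 and HRO.8 or without WBM_1, 1 without the highest-UMI members, 10 with DESeq2, 68 with no filter (47 higher, 21 lower) and 14 without the pool term (9 higher, 5 lower). Leaving out 1 sample gave 0 to 7, with 7 without HRO.9. With no filter the median of all genes moved to 0.41. For the chronic contrast no fit could be made with at least 10 cells, hashtags normalised within each cell, the stricter gate or without WBM_1. The chronic contrast gave 1 called gene, 2 without the highest-UMI members, 0 without the pool term or without HRO.7 and HRO.8, and 0 to 1 leaving out 1 sample.

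The HRO minus WTO share of 2.46 percentage points was 2.38 with hashtags normalised within each cell, 4.78 without neutrophils in the denominator, 1.42 without HRO.7 and HRO.8, 2.60 without WBM_1 and 2.02 to 2.87 leaving out 1 sample. The chronic difference in share reversed to 0.0134 within cell and 0.0272 with the stricter gate, and ranged from -0.250 to 0.108 leaving out 1 sample. Leaving out 1 sample gave -0.0807 to 0.250 for HRY minus WTY, and for the log2 ratio of CD8 to CD4 cells -0.22 to 1.01 for WTO minus WTY and -3.11 to 0.25 for chronic. It gave -1.61 to 0.26 for Klre1 and -5.70 to 2.70 for Elane. With at least 10 cells Eomes was at -0.075 and Elane at 5.84, and without the highest-UMI members Elane was at 0.19.

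Shares of HRO cells with a UMI moved with depth: unthinned and at 500 UMIs, Ccl4 was 57.9% and 26.0%, Gzmb 70.3% and 25.7%, Lag3 53.7% and 14.6%, Prf1 61.5% and 15.8%, Il7r 25.9% and 8.62%, and Nkg7 96.5% and 67.3%. Fits with at least 20 or 40 cells could not be made. With 49 WTO cells, low levels in WTO could not be seen. No paired analysis was made, because the labels do not say whether hashtag numbers shared by groups mark a common animal or day. Some shared numbers fall in the same pool, as WTO.3 and WTY.3 in WBM_1. Others do not, as WTO.4 in WBM_2 and WTY.4 in WBM_3.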

Other observations

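HR.7, which the labels put in no group, held 44 CD8 T cells. After thinning to 1000 UMIs, 42 of them remained, of which Ccl4 had a UMI in 61.9%, Prf1 in 47.6%, Lag3 in 38.1%, Mki67 in 26.2%, Gzmb in 16.7% and Il7r in 2.38%. Its Ccl4 level of 4071 CPM and Cxcr6 level of 818 CPM were above those of all 6 HRO samples, while its neutrophil list summed to 1449 CPM. HR.AE, also in no group, held 0 CD8 T cells among 1401 kept cells, which allows a share of up to 0.214% by a limit of 3 counts (the exact 95% interval reaches 0.263%).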
